A study of Rattus norvegicus with 7 samples.

Results

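Potassium channel genes were examined in rat oligodendrocyte progenitors grown in culture, from which the myelin-forming cells of brain and spinal cord arise. Members are all rows of the deposited expression table whose symbol is Kcn followed by lower-case subfamily letters and a number, 93 of 32852 rows. They carry 92 symbols, since 2 identifiers share the symbol Kcnn2. All 93 had reads, and 83 had a mean normalised count of at least 10 and were tested. The other 10 (Kcna10, Kcne1, Kcng3, Kcnh3, Kcnh6, Kcnj1, Kcnk16, Kcnmb1, Kcns3 and Kcnu1) were too low.

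The study holds 7 RNA sequencing libraries from wild-type (WT) cells isolated at postnatal day 7, of which 4 received a control siRNA and 3 received an siRNA to RNLTR12-int, the internal part of an endogenous retrovirus. All were moved to differentiating medium at transfection and kept there for 4 to 5 days. No animal or culture is named for any library, although the labels term them biological replicates. The p-values therefore measure only the spread between these samples, which may be technical. RNLTR12-int was not analysed here, and whether it was knocked down is unchecked.

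Potassium channels let potassium ions cross the cell membrane and so set its resting voltage and end electrical activity. In the oligodendrocyte lineage, progenitors carry many voltage-gated potassium channels, and inward rectifiers, which pass current mainly into the cell, are known for maturing oligodendrocytes and for astrocytes, where they take up potassium released by axons. Leak channels are open at rest, calcium- and sodium-activated channels open when those ions rise inside the cell, and auxiliary subunits form no pore but alter the channels they join. Silent voltage-gated subunits conduct only when assembled with another subunit.

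The libraries held 22523873 to 61803693 recovered reads, of which members took 23449 to 64429. Oligodendrocyte lineage markers were all measured (10 of 10), with a summed normalised count of 235752 to 919218 in controls and 152144 to 259410 after the siRNA. Astrocyte markers (11 of 11 measured) summed to 138378 to 579009 and 131910 to 640510, and microglia markers (10 of 11) to 1553 to 13171 and 2204 to 15154. Both sums were highest in the same 3 libraries, siRNLTR12-int replicate 1 and control replicates 1 and 2. The astrocyte marker Gfap had 262591, 224537 and 306397 normalised counts in those 3 libraries, against 19440 to 44392 in the other 4. By limma 0 genes of any marker list passed, and 3 of the oligodendrocyte lineage list fell in the authors' deposited table. Neuron markers (11 of 11) summed to 26709 to 32712 and 28555 to 35124, and vascular and mural markers (9 of 11, Cldn5 at 0 in every library) to 1615 to 4391 and 1688 to 3905. In such bulk RNA, fewer cells of a type and less RNA per cell cannot be told apart.

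The comparison of the 2 siRNAs asks how these channels differ once RNLTR12-int is targeted. Kcnh5 and Kcnb2, both pore subunits of voltage-gated channels, fell in the comparison the authors deposited (DESeq2), and no member rose there. Throughout, fell and rose in that comparison mean an adjusted p under 0.05, which is not the authors' own mark. They mark Kcnb2 as DOWN and Kcnh5 as not differentially expressed. With limma, 0 of the 83 members tested passed at an adjusted p under 0.05, as did 0% of all 18225 genes tested. At an unadjusted limma p under 0.05, 6 members were lower and 2 higher, against 2.98% and 3.33% of all genes tested. By edgeR 0 members passed too (0% of all genes), with 7 at an unadjusted p under 0.05 where 6.39% of all genes were. Of the 84 members with an adjusted p in the authors' deposited table, 2 fell, where 0.368% of all genes fell and 0.384% rose.

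The groups did not overlap in 7 members, of which 6 were lower after the siRNA and 1 was higher. Of all genes tested, 3.59% were lower and 4.09% higher without overlap. With array weights, which give libraries that vary more less say, limma called 6 members where 2.5% of all genes were called higher and 2.1% lower. Kcnh4 and Kcnt1 were higher, and Kcna6, Kcnb2, Kcne4 and Kcnh5 lower. All 6 were also called in the fit of the 4 libraries low in astrocyte markers, given below, whose p-values may be too small. Whether the weights leaned on those libraries was not tested. The median log2 difference of the members was 0.07 (47 positive, 36 negative), against 0.01 for all genes tested.

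**Figure D1:**
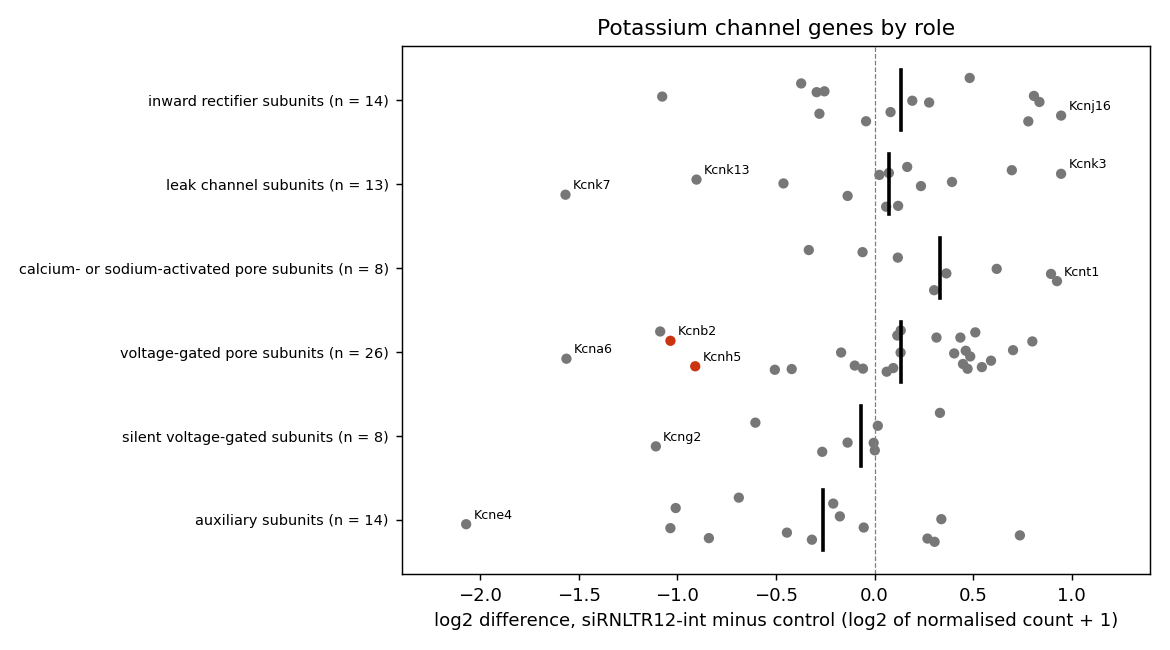
Each point is one of the 83 tested members, placed by its log2 difference (siRNLTR12-int minus control, log2 of normalised count + 1) and grouped by role, with a black bar at the median of each role. The 2 red points, Kcnb2 and Kcnh5, passed an adjusted p under 0.05 in the authors' deposited table, and the point farthest to the left is Kcne4 at -2.07.

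Kcnh5 (ENSRNOG00000009542), an ether-à-go-go type voltage-gated pore subunit, had 147, 197, 206 and 188 normalised counts in the controls (replicates 1 to 4, the order used throughout). It had 100.5, 96.2 and 94.3 after the siRNA (replicates 1 to 3). The 3 siRNA libraries were close together and below all controls, whether high or low in astrocyte markers. The means were 185 ± 25.8 (SD, n = 4) and 97.0 ± 3.17 (SD, n = 3). The authors' deposited table gives Kcnh5 a log2 change of -0.93, with a DESeq2 adjusted p of 0.00318, and marks it as not differentially expressed. With limma the difference was -0.91 with a standard error of 0.17 (adjusted p = 0.647).

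The promoter window of Kcnh5 is shown next to those of the inward rectifiers Kcnj10 and Kcnj16, whose levels are given below. For Kcnb2, the other member that fell, no window was found. The windows run from 250 bases before to 50 after the gene start in RefSeq (build GRCr8, not the build of the counts), 5′ to 3′ along the gene. Capitals mark the E-box letters CANNTG, bound by basic helix-loop-helix factors, and the GC box letters GGGCGG, searched on both strands, with overlapping matches counted.
Kcnh5, chr6:99643807-99644106, minus strand: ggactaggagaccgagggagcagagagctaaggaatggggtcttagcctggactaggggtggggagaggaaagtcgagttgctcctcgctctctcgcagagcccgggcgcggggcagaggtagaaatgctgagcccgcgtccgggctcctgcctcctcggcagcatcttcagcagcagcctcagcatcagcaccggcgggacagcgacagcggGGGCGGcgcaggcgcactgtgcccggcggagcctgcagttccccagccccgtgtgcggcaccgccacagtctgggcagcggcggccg
Kcnj10, chr13:87334260-87334559, plus strand: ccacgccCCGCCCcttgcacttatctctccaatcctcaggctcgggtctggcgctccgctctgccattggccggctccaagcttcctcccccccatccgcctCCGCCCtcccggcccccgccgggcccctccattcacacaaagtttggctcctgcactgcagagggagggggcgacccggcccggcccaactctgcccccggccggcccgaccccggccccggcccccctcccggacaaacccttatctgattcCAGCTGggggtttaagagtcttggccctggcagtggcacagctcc
Kcnj16, chr10:96517074-96517373, plus strand: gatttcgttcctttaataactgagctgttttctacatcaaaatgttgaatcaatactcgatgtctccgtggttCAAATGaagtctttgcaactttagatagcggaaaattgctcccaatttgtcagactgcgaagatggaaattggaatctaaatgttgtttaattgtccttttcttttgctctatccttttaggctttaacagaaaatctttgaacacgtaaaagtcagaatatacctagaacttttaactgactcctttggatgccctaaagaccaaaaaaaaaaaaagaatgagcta
The Kcnh5 window was 69.3% G or C with 26 CG pairs and held 1 GC box and 0 E-boxes. The Kcnj10 window was 70.3% G or C with 20 CG pairs, 2 GC boxes and 1 E-box. The Kcnj16 window was 34% G or C with 6 CG pairs, 0 GC boxes and 1 E-box, so the 2 partner subunits have start regions of unlike base composition. Of 33469 windows of the same length, 33.1% held a GC box and 72.1% an E-box, with a median of 51.7% G or C. Windows were found for 62 of the 92 member symbols. Of their 68 windows, 50% held a GC box and 69.1% an E-box, with a median of 60.8% G or C. A match describes letters and is not a measured binding site.

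Kcnb2 (ENSRNOG00000028991), a delayed rectifier pore subunit, had 296, 560, 347 and 305 normalised counts in the controls and 160, 187 and 185 after the siRNA. The groups did not overlap, and control replicate 2 was the highest library. The means were 377 ± 124 (SD, n = 4) and 178 ± 15.3 (SD, n = 3). The authors' deposited table gives Kcnb2 a log2 change of -1.09 (DESeq2 adjusted p = 0.0289), and of all members it marks Kcnb2 alone as DOWN. The limma difference was -1.04 with a standard error of 0.24 (adjusted p = 0.647).

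Kcna6, a Shaker-type delayed rectifier subunit, had 316, 1264, 369 and 422 normalised counts in the controls and 146, 171 and 191 after the siRNA. The authors' deposited table gives it -1.81 (log2), which did not pass (DESeq2 adjusted p = 0.0553). Kcne4, an auxiliary subunit with a single membrane span that damps voltage-gated channels, had 43.1, 261, 38.8 and 46.1 in the controls and 23.8, 11.4 and 12.9 after the siRNA. Its log2 difference in the authors' table was -2.60 (DESeq2 adjusted p = 0.084). In both genes the groups did not overlap, and control replicate 2 stood far above the other controls. That library was also the highest in Mbp, which encodes myelin basic protein, with 401821 normalised counts. The other controls had 78977 to 109426, and the siRNLTR12-int libraries 15076 to 32168. The part of the myelin level in these differences was not tested. Without control replicate 2 the limma difference of Kcna6 was -1.12 and that of Kcne4 -1.43.

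Kcng2, a silent subunit, had 24.9, 19.6, 12.9 and 12.4 normalised counts in the controls and 9.14, 3.80 and 10.5 after the siRNA, from 101 reads in all 7 libraries. Kcnk7, a leak channel family member for which no current of its own is known, had 22.01, 8.71, 25.0 and 53.2 against 11.9, 3.80 and 7.25, from 119 reads. The Kcng2 groups did not overlap, while those of Kcnk7 did. Kcnv1, another silent subunit, had a narrow range, with 184 to 218 in controls and 168 to 184 after the siRNA. Its highest siRNA library was below the lowest control by less than 1 normalised count, and its log2 difference was -0.14 (limma adjusted p = 0.966).

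Kcnt1, a sodium-activated pore subunit, was the member whose siRNLTR12-int libraries all lay above the controls. It had 4322, 1777, 3984 and 2995 normalised counts in the controls and 4436, 6723 and 6809 after the siRNA. The gap was narrow between control replicate 1 and siRNLTR12-int replicate 1, both high in astrocyte markers. The limma difference was 0.93 with a standard error of 0.33 (adjusted p = 0.712), and the authors' deposited table gave 0.87 (DESeq2 adjusted p = 0.352). Kcnj2, a strong inward rectifier, had 161, 88.5, 75.0 and 71.0 in the controls and 198, 172 and 130 after the siRNA, with overlap at control replicate 1. Its limma difference was 0.81 with a standard error of 0.32 (adjusted p = 0.778).

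**Figure D2:**
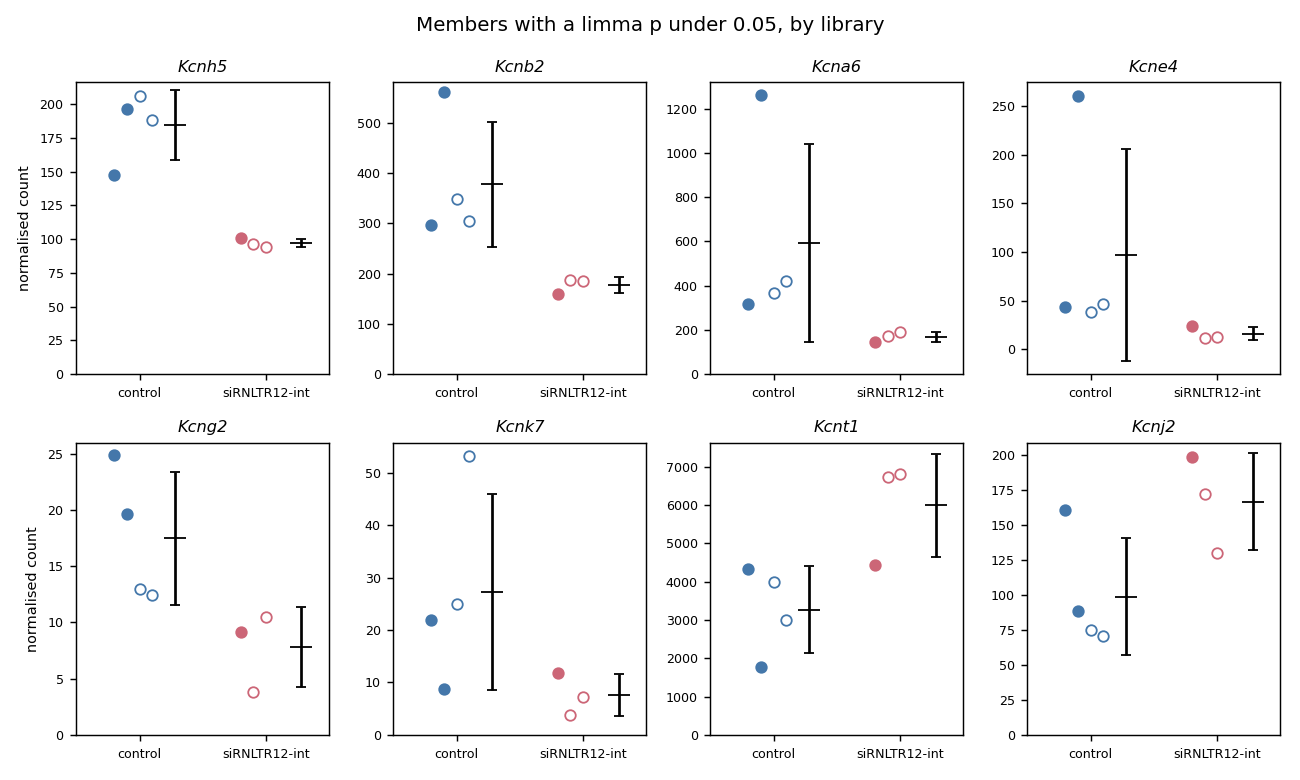
Normalised counts of the 8 members with an unadjusted limma p under 0.05, by group, with filled points for the 3 libraries high in astrocyte markers, open points for the other 4, and the mean ± SD at the right of each group. Kcnh5, Kcnb2, Kcna6, Kcne4 and Kcng2 lie lower after the siRNA without overlap, Kcnt1 lies higher without overlap, and Kcnk7 and Kcnj2 overlap.

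Among the inward rectifiers (15 members, 14 tested), 8 had a positive and 6 a negative log2 difference, and 0 passed with limma or in the authors' deposited table. Kcnj10 (ENSRNOG00000007705) encodes the main glial inward rectifier, known for potassium uptake by astrocytes and oligodendrocytes. It had 8673, 7390, 6710 and 8991 normalised counts in the controls and 13189, 7659 and 7228 after the siRNA. The groups overlapped and siRNLTR12-int replicate 1 stood highest. The log2 difference was 0.19 with a standard error of 0.23 (limma adjusted p = 0.978), and without siRNLTR12-int replicate 1 it was -0.08.

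Kcnj16 (ENSRNOG00000004713), which joins the Kcnj10 protein in mixed channels, varied far more between libraries. It had 473, 130, 114 and 76.3 normalised counts in the controls and 768, 182 and 181 after the siRNA. The highest library was 10.1 times the lowest, against 1.97 times for Kcnj10. Control replicate 1 and siRNLTR12-int replicate 1 were the highest in Kcnj16 and also had the largest marker sums of 3 lists. These were 579009 and 640510 for astrocytes, 13171 and 15154 for microglia, and 4391 and 3905 for vascular and mural cells. Control replicate 2, with an astrocyte sum of 517700 and a microglia sum of 4619, had 130 normalised counts of Kcnj16. The part of these marker levels in the Kcnj16 values was not tested. The siRNA difference was 0.95 with a standard error of 0.75 (limma adjusted p = 0.935).

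Kcnj12, a strong inward rectifier like Kcnj2, ran the other way across libraries, with 117, 327, 521 and 809 normalised counts in the controls and 114, 415 and 438 after the siRNA. Its 4 highest libraries were the 4 low in astrocyte markers. Kcnj8, the pore of a channel gated by ATP that is known from mural cells, had 2.18 to 24.9 in controls and 2.42 to 26.5 after the siRNA, from 79 reads. Control replicate 1 and siRNLTR12-int replicate 1 held the highest Kcnj8 counts, and their vascular and mural marker sums, 4391 and 3905, were also the highest. Single markers of that list did not all follow the sum. Pdgfrb was highest in control replicate 2 (2808 normalised counts), where Kcnj8 was lowest, and Acta2 in siRNLTR12-int replicate 3 (182). The part of these cells in the Kcnj8 counts was not tested.

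Leak channel subunits (14 members, 13 tested) had 9 positive and 4 negative log2 differences, and 0 passed with limma or in the authors' deposited table. Kcnk3, an acid-sensitive leak subunit, had 354, 188, 471 and 222 normalised counts in the controls and 290, 872 and 686 after the siRNA. The siRNA libraries low in astrocyte markers were above all controls, and the remaining siRNA library fell among them (log2 0.95, standard error 0.46, limma adjusted p = 0.837). Kcnk10, a leak subunit sensitive to stretch, had 878 to 1979 in controls and 1505 to 1823 after the siRNA. Kcnk1, a weakly inward-rectifying leak subunit, had 99.1 ± 30.4 (SD, n = 4) and 99.0 ± 19.9 (SD, n = 3), a log2 difference of 0.02 with a standard error of 0.28. Kcnk13, known from microglia, had 59.3, 26.1, 10.3 and 14.2 in the controls and 42.0, 3.80 and 8.06 after the siRNA. Its 3 highest libraries were the 3 with the largest astrocyte, microglia, and vascular and mural marker sums, whose part in this was not tested.

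Calcium- and sodium-activated pore subunits (9 members, 8 tested) had 6 positive and 2 negative log2 differences, and 0 passed with limma or in the authors' deposited table. Kcnn2, a small-conductance calcium-activated subunit, is split over 2 identifiers, and no source used here states how reads were divided between them. The identifier with more reads (ENSRNOG00000016675) had 3011, 869, 427 and 410 normalised counts in the controls and 3902, 535 and 499.7 after the siRNA. The other (ENSRNOG00000051569) had 553, 157, 105 and 47.9 in the controls and 564, 170 and 116 after the siRNA. Both were far higher in control replicate 1 and siRNLTR12-int replicate 1 than in any other library. The authors' table gives no p-value for the first identifier.

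Kcnn4, an intermediate-conductance calcium-activated subunit known from microglia, was highest in those 2 libraries too, with 236, 40.6, 55.2 and 26.6 in the controls and 193, 87.3 and 91.1 after the siRNA. The astrocyte, microglia, and vascular and mural marker sums were highest in the same libraries, and their part was not tested for either gene. The log2 difference of Kcnn4 was 0.90 with a standard error of 0.73 (limma adjusted p = 0.937). Kcnma1, the pore of the large-conductance calcium-activated channel, had 737 to 1361 in controls and 728 to 1334 after the siRNA. Its auxiliary subunit Kcnmb2 had 83.4 to 179 and 105 to 149.9. Both groups of values overlapped almost fully.

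Voltage-gated pore subunits (29 members, 26 tested) had 17 positive and 9 negative log2 differences. Beside Kcnh5 and Kcnb2, which fell in the authors' deposited table at an adjusted p under 0.05, 0 members of this role passed there or with limma.

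Kcnd3, an A-type channel subunit that opens and inactivates quickly, had 1988, 2636, 3859 and 3041 in the controls and 2199, 5940 and 5218 after the siRNA. Kcnq5, of the M-current family that holds membrane voltage near rest, had 512, 471, 1277 and 988 in the controls and 643, 1938 and 1740 after the siRNA. In Kcnd3 and Kcnq5 the 4 highest libraries were those low in astrocyte markers, and siRNLTR12-int replicate 1 lay within the range of the controls. Their limma adjusted p-values were 0.918 and 0.901.

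Kcna2, a Shaker-type subunit, had 5476, 7280, 2863 and 2819 normalised counts in the controls and 6824, 3877 and 3784 after the siRNA. It was higher in all 3 libraries high in astrocyte markers than in the other 4 (log2 difference after the siRNA 0.13, standard error 0.40, limma adjusted p = 0.992). Kcnc4, a Shaw-type subunit, had 225 to 381 in controls and 280 to 486 after the siRNA. Kcnh4 had 170 to 219 in controls and 176, 320 and 328 after the siRNA. Kcnh2, of the same subfamily, had 267 to 358 and 212 to 384. Of the 6 tested members of this subfamily 4 had a positive and 2 a negative log2 difference, with a median of 0.37. The differences were 0.59 for Kcnh1, 0.51 for Kcnh8, 0.44 for Kcnh4, 0.31 for Kcnh7, -0.10 for Kcnh2 and -0.91 for Kcnh5.

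Among silent subunits (10 members, 8 tested) 3 differences were positive and 5 negative, and 0 passed with limma or in the authors' deposited table. Kcng4 had 1772, 1590, 825 and 672 normalised counts in the controls and 1447, 714 and 779 after the siRNA, again higher in the 3 libraries high in astrocyte markers. Kcnf1 had 52.6, 157, 69.0 and 81.6 in the controls and 48.4, 157 and 148 after the siRNA.

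Auxiliary subunits (16 members, 14 tested) had 4 positive and 10 negative log2 differences with a median of -0.26, and 0 passed with limma or in the authors' deposited table. Kcnip3, a calcium-binding protein that joins Kcnd channels, had 498, 658, 2255 and 1920 normalised counts in the controls and 547, 3475 and 3168 after the siRNA. Like its partner Kcnd3 it was higher in the 4 libraries low in astrocyte markers. Kcne5 had 482, 555, 173 and 177 in the controls and 378, 142 and 121 after the siRNA, the opposite order. Kcnab1 and Kcnab3, cytosolic subunits of Shaker-type channels, had 477 to 714 and 136 to 183 in controls. After the siRNA Kcnab1 had 509 to 838 and Kcnab3 172 to 235.

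**Figure D3:**
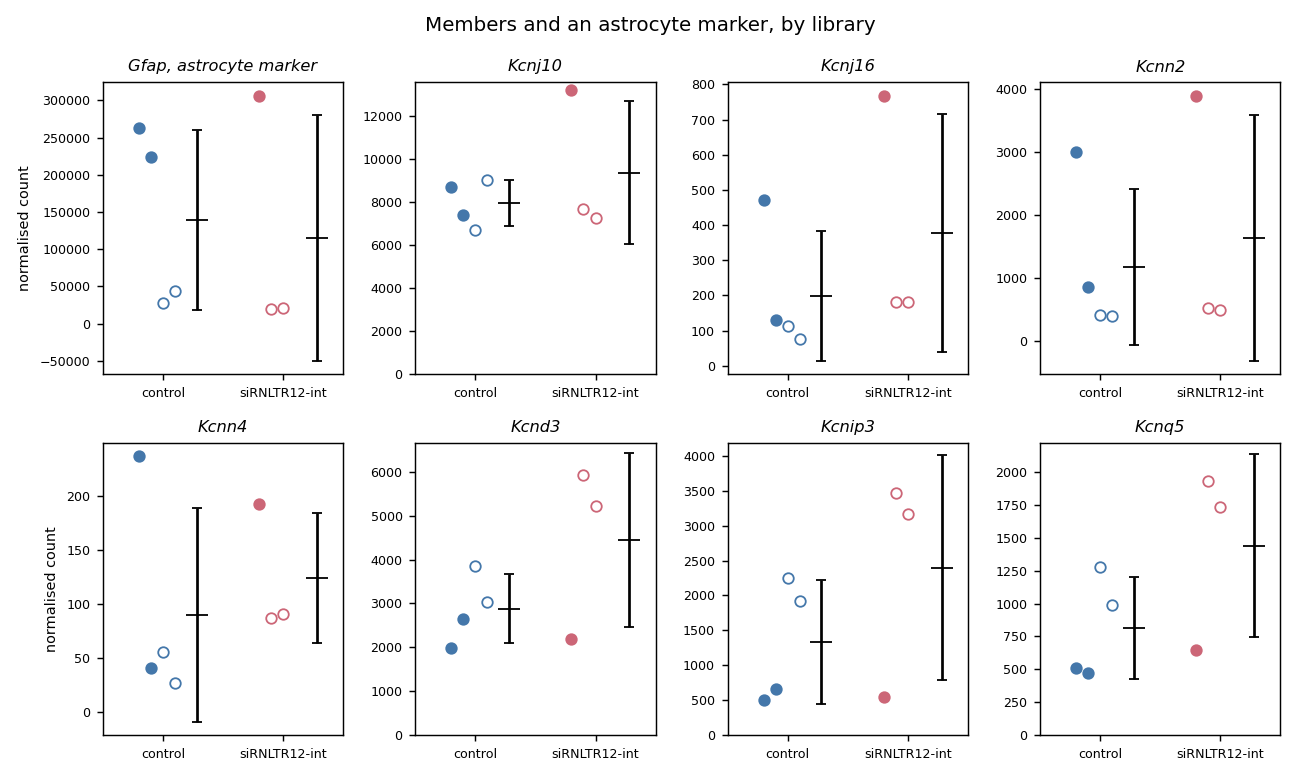
Normalised counts by group for the astrocyte marker Gfap and 7 members, with filled points for the 3 libraries high in astrocyte markers, open points for the other 4, and the mean ± SD at the right (the Kcnn2 panel shows the identifier with more reads). Kcnj16, Kcnn2 and Kcnn4 peak in control replicate 1 and siRNLTR12-int replicate 1, Kcnj10 spans 6710 to 13189, and Kcnd3, Kcnip3 and Kcnq5 are higher in the open points.

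Over all tested members, the 3 libraries high in astrocyte markers were the 3 highest in 18 of 83, where this was so for 18.6% of all genes tested. The 4 libraries low in those markers were the 4 highest in 15 of 83 members, where this was so for 17.1% of all genes. Both member shares are near the background. Kcns2, a silent subunit chosen as an example after its values were seen, varied widely. It had 213, 53.0 and 194 normalised counts in the 3 libraries high in astrocyte markers and 6.03 to 26.6 in the other 4.

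When limma was run on control replicates 3 and 4 and siRNLTR12-int replicates 2 and 3, the 4 low in astrocyte markers, it called 16 of 78 members tested, 11 higher and 5 lower, where 4.78% and 3.1% of all genes were called higher and lower. These libraries were chosen by marker level after earlier results were known, and their siRNA pair was the closest pair of libraries in the study, with a median chi-square of 1.29 per gene. Their control pair was the next closest, at 2.8. Control replicate 1 and siRNLTR12-int replicate 1, which received different siRNAs, were about as close, at 2.82. This measure grows with read depth, and control replicate 4 was the shallowest library. The p-values of the 4-library fit rest on the spread within its siRNA pair and its control pair. That spread may understate the spread between cultures, so the p-values may be too small. The members called lower were Kcnh5, Kcnb2, Kcna6, Kcne4 and Kcnk7. Kcnh5 differed by -1.04 (limma adjusted p = 0.0191), Kcnb2 by -0.80 (0.0237) and Kcna6 by -1.12 (0.0106). Kcne4 differed by -1.72 (limma adjusted p = 0.0388) and Kcnk7 by -2.58 (0.0414).

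The members called higher there included Kcna2, Kcna3, Kcnd3, Kcnf1, Kcnh4, Kcnip3, Kcnj2, Kcnk9, Kcnq5 and Kcnt1. Kcnt1 differed by 0.97 (limma adjusted p = 0.0111), Kcnip3 by 0.67 (0.0149), Kcnd3 by 0.70 (0.0238) and Kcnq5 by 0.71 (0.027). Kcna2 differed by 0.43 (limma adjusted p = 0.0187), Kcnf1 by 1.01 (0.0299), Kcnj2 by 1.02 (0.0381) and Kcnh4 by 0.71 (0.0394). Kcna3, a Shaker-type subunit, and Kcnk9, an acid-sensitive leak subunit, lie outside the rule for named genes. They differed by 0.54 and 2.15 (limma adjusted p = 0.0308 and 0.0434), and Kcnk9 had only 5.17 and 7.10 normalised counts in the controls of that set. Among the remaining 3 libraries, with a single siRNLTR12-int library, Kcnh5 had 147 and 197 against 100.5, Kcnt1 had 4322 and 1777 against 4436, and Kcnd3 had 1988 and 2636 against 2199. Over all 7 libraries Kcnh5 lay below and Kcnt1 above every control, so their order within each set was fixed and adds no support. The Kcnd3 siRNA library lay between its controls.

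**Figure D4:**
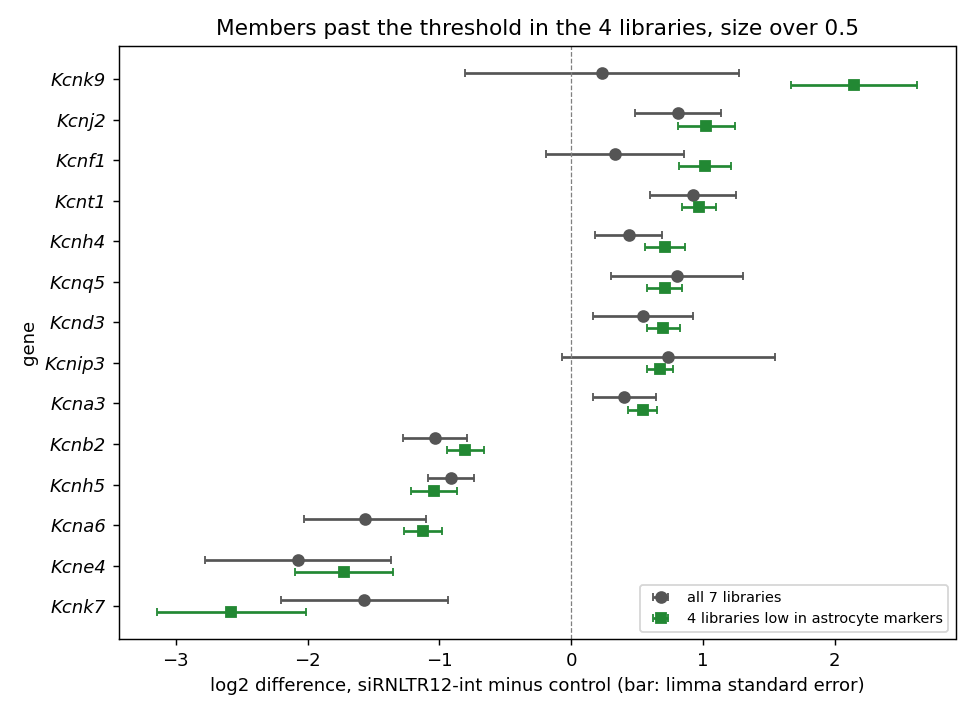
Log2 differences (siRNLTR12-int minus control) with limma standard errors of the 14 members that passed in the 4 libraries and differed there by over 0.5 in size, as squares, beside the values from all 7 libraries, as circles. Both values have the same sign in each of the 14 members, and the 4 libraries are part of the 7.

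Members together took 0.120%, 0.100%, 0.115% and 0.104% of the reads in the 4 controls, against 0.132%, 0.135% and 0.134% after the siRNA. The groups did not overlap. The Wilson 95% interval of control replicate 4, the shallowest library, ran from 0.103% to 0.105% (counting error only). Without Kcnj10 the shares were 0.0979%, 0.0837%, 0.0973% and 0.0816% against 0.0998%, 0.116% and 0.115%. Without Kcnt1 as well they were 0.0870%, 0.0797%, 0.0867% and 0.0741% against 0.0890%, 0.0989% and 0.0976%. The gap between control replicate 1 and siRNLTR12-int replicate 1 narrowed without Kcnj10 and hardly changed when Kcnt1 was left out too. The shares also depend on the reads of all other genes, myelin genes among them.

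The potassium homeostasis partners, a list of 33 pumps, cotransporters, gap junction proteins and channel partners, had 10 positive and 23 negative log2 differences. With limma 0 passed, and at an unadjusted limma p under 0.05 there were 3 in each direction, where 3.33% of all genes tested were higher and 2.98% lower. In the authors' deposited table, where 0.384% of all genes rose and 0.368% fell, 1 of the 33 rose and 2 fell. Atp1b1, a subunit of the sodium-potassium pump, was the gene of the list that rose by the authors' deposited table, at a DESeq2 adjusted p of 0.0300, with 6227, 4756, 6015 and 4754 normalised counts in the controls and 7869, 8300 and 8484 after the siRNA. Gjc3, which encodes a connexin of oligodendrocytes, fell in that table (DESeq2 adjusted p = 0.0168). It had 1762, 9283, 1323 and 1889 in the controls and 810.3, 362 and 255 after the siRNA. In both genes the groups did not overlap, and Gjc3 was highest in control replicate 2, as were Kcna6 and Kcne4.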

How the data were processed

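Per the submitters' processing notes, reads were handled with Salmon and DESeq2 on Rnor_6.0 (versions not listed). The authors deposited normalised counts (a signal, each library divided by its size factor). Their second deposited table gives the mean signal, log2 fold change with standard error, test score, p-value and adjusted p-value of siRNLTR12-int over control. Dividing each library by its smallest step gave whole reads for 100% of values above 0 (tolerance 0.01). How reads of related genes were divided is not stated.

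The main test was limma 3.58.1 (empirical Bayes with trend, two-sided) on log2(normalised count + 1), a scale that understates changes of low genes. Genes with a mean of at least 10 entered, with Benjamini-Hochberg adjustment over all 18225. edgeR 4.0.16 and DESeq2 1.42.0 were run on the recovered reads. All 3 were tested on simulated data with a moderate spread between libraries and no split by astrocyte markers. That test therefore does not show how they perform on libraries that differ as these do. Alternatives also covered pseudocounts, filters, rescaling, weights, covariates, blocks and left-out libraries.

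The members and lists were chosen with earlier results of these data known. Genes were named by rule: Kcnj10 and Kcnj16, the member with the most counts in each subfamily (mean at least 100), the 6 smallest limma p-values in each direction, calls of the authors' table, the 6 largest ratios between libraries (mean at least 100), and chosen genes such as Kcnn4, Kcnk13, Kcnj8, Kcna2 and Kcnk1. Some genes the rule names are not reported here. Other genes were chosen after their values were seen.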

Additional observations from a re-analysis of the deposited data

Results flagged for a closer look

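In 4 of the genes named above, one control library lay far from the other 3, by Dixon's test at the 95% level. In control replicate 1, Kcnj16 had 473 normalised counts where the other controls had 76.3 to 130, and Kcnn4 had 236 where they had 26.6 to 55.2. Kcne4 had 261 in control replicate 2, against 38.8 to 46.1, and Kcna6 had 1264 there, against 316 to 422. Over all 83 tested members such a library was found in 5, the fifth being Kcnip2 with 636 in control replicate 2 against 305 to 349. Chance flags about 1 in 20 groups.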

How the results depend on the processing

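With limma, 0 members passed in each setting that kept all 7 libraries and unweighted samples, and in each fit that left out a library. DESeq2 on recovered reads called 2 members (141 of all genes), array weights 6 (839), and the 4 libraries low in astrocyte markers 16 (1415). The cause of these differences was not tested. Leaving out each library gave 0 to 2 calls over all genes, with 2 without control replicate 4 and 1 without siRNLTR12-int replicate 2.

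Of 37 named rows, 26 kept their sign in all alternatives run. Leaving out each library, the log2 difference ranged from -0.14 to 0.39 for Kcna2, -0.26 to 0.16 for Kcnh2, -0.0838 to 0.35 for Kcnj10, -0.91 to 0.26 for Kcnj12, -0.82 to 0.29 for Kcnj8, -0.13 to 0.21 for Kcnk1, -0.0314 to 0.41 for Kcnma1 and -0.28 to 0.10 for Kcnmb2. For Kcnn2 it ranged from -0.67 to 0.93 (ENSRNOG00000016675) and -0.0464 to 1.26 (ENSRNOG00000051569). Array weights gave -0.0850 for Kcnj10, 0.0727 for Kcnh2 and -0.0286 for Kcnn2 (ENSRNOG00000016675). The 4 libraries low in astrocyte markers gave -0.0620 for Kcnj10, 0.0796 for Kcnh2 and 0.0016 for Kcng4. Kcnma1 was -0.0043 with the astrocyte split as a block, and Kcnk1 was -0.0052 by edgeR and -0.0037 by DESeq2. The cause of these sign changes was not tested.

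Deviations of same-numbered libraries from their group means correlated at 0.75, -0.19 and 0.63 for replicates 1, 2 and 3. Not every pair deviated together and the labels name no shared source, so the libraries were not treated as paired. Whether replicates 1 or 3 shared a preparation was not tested. With the replicate block 0 members and 0 of all genes passed, and the median of the members was 0.02. That block gave 0.0214 for Kcnj12, 0.0460 for Kcnmb2, -0.0323 for Kcnn2 (ENSRNOG00000016675), -0.0630 for Kcna2 and -0.0429 for Kcnk1, the values without control replicate 4, which has no partner. Low counts limit Kcng2, Kcnk7 and Kcnj8, with 101, 119 and 79 reads in all.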
